A study of Mus musculus with 2 samples.

Results

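The 9 genes described here carry heme and iron through a cell, and they were followed in single leukocytes from mouse hearts. Cd163 takes up haemoglobin bound to haptoglobin, Hmox1 (heme oxygenase 1) opens the heme ring and frees its iron, and Blvrb encodes biliverdin reductase B. Fth1 and Ftl1 are the heavy and light chains of ferritin, which stores iron, Slc40a1 (ferroportin) is the cellular iron exporter, Slc11a1 (Nramp1) moves iron and other metals out of phagosomes, Tfrc is the transferrin receptor, and Nfe2l2 (Nrf2) is a transcription factor that drives genes such as Hmox1 and the ferritins. They were chosen by name, as 9 of 31053 features, and all 9 were present in both deposited matrices.

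Hearts came from wild-type C57BL/6 mice aged 10 weeks that had either a sham operation or transverse aortic constriction (TAC), a band on the aorta that raises the pressure load on the left ventricle. CD45+ cells, meaning leukocytes, were sorted and profiled on the 10x Genomics platform. Each group was 1 library made from the hearts of a group of 6 mice, and the animals could not be told apart within a library. No test between the groups was therefore possible. Each interval below is at 95% and reflects counting error alone, and a difference between libraries cannot be told apart from a difference between the preparations or animals.

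Tissue macrophages recycle iron: they engulf aged red cells and debris, break down heme with Hmox1, and either store the iron in ferritin or pass it on through ferroportin. In the heart, resident macrophages that carry Lyve1, Folr2 and Timd4 sit beside macrophages that come from circulating Ccr2-positive monocytes. Cells set ferritin, ferroportin and transferrin receptor in part through the iron-responsive element, an RNA hairpin bound by iron regulatory proteins when iron is scarce. Bound in a 5′ UTR the hairpin blocks translation, and bound in a 3′ UTR it protects the transcript from decay, so transcript counts such as these show the second kind of control more directly than the first.

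The hairpins are shown because they split the 9 genes into those under this shared control and those without the element. The element was searched on the transcript strand as the loop CAGTGN between 2 runs of 5 bases that pair with each other, G-T pairs allowed, with an unpaired C before the first run. Transcripts and positions came from GENCODE vM21, built on GRCm38, which is the mm10 assembly. Each 30-base stretch is written 5′ to 3′ with T for U, and capitals mark the loop.
Fth1, 5′ UTR, chr19:9982732-9982761, plus strand: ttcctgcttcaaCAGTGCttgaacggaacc
Ftl1, 5′ UTR, chr7:45459778-45459807, minus strand: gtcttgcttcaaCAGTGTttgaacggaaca
Slc40a1, 5′ UTR, chr1:45925464-45925493, minus strand: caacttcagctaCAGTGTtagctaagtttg
Tfrc, 3′ UTR, chr16:32631219-32631248, plus strand: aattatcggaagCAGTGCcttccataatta
Tfrc, 3′ UTR, chr16:32631598-32631627, plus strand: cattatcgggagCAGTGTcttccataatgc
Tfrc, 3′ UTR, chr16:32631663-32631692, plus strand: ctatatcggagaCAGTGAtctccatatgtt
Tfrc, 3′ UTR, chr16:32631710-32631739, plus strand: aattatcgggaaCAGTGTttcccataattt
The pattern stood in the 5′ UTR of 31 of 20916 genes (0.148%) and in the 3′ UTR of 129 of 21045 (0.613%). In the UTRs of Cd163, Hmox1, Slc11a1, Blvrb and Nfe2l2 these letters were not found.

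In the same annotation the 9 genes are protein-coding. Cd163 (ENSMUSG00000008845) lies at chr6:124304656-124330527 and Hmox1 (ENSMUSG00000005413) at chr8:75093621-75100589. Blvrb (ENSMUSG00000040466) lies at chr7:27447978-27466144 and Ftl1 (ENSMUSG00000050708) at chr7:45457944-45459884, and Fth1 (ENSMUSG00000024661) at chr19:9980598-9985098. Slc40a1 (ENSMUSG00000025993) lies at chr1:45908068-45926523 and Slc11a1 (ENSMUSG00000026177) at chr1:74375195-74386062. Tfrc (ENSMUSG00000022797) lies at chr16:32608920-32632794 and Nfe2l2 (ENSMUSG00000015839) at chr2:75675513-75704641.

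The 2 libraries differed in quality, and this touches every value that follows. Of 11941 sham and 7975 TAC barcodes, 7590 and 2246 had over 10% mitochondrial unique molecular identifiers (UMIs). Filtering left 4169 sham and 5601 TAC cells, and these held 50738794 UMIs in sham and 90373295 in TAC. The median kept cell had 9536 UMIs and 8.02% mitochondrial UMIs in sham, and 13892 UMIs and 4.42% in TAC. The libraries shared 35 barcodes, 7 of them among kept cells. The sorted marker CD45 is encoded by Ptprc, and 90.6% of sham and 95.5% of TAC macrophages held a UMI of it, against 18.4% and 16.9% of fibroblast-like and 36.3% and 19.7% of endothelial-like cells. Clusters were called by the class whose markers they carried, so a name means "like" that class. The macrophage-like class held 2675 sham and 2246 TAC cells and had 17 of its 18 markers in at least 50% of its cells. The naming rule used these same markers, so that count does not bear on the name. It did not set the class apart either: B, T and NK cell-like barcodes had 17, 16 and 15 of the 18. Macrophage clusters 0, 2, 3, 4 and 16 had 0 of them among their 10 leading genes. Macrophage RNA was present in many other barcodes: 94.2% of sham T cell-like and 91.4% of sham neutrophil-like barcodes held at least 20 UMIs per 10000 of the complement genes C1qa, C1qb and C1qc, against 71.0% and 43.1% in TAC.

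In macrophages the exporter, the haemoglobin receptor, the transferrin receptor and heme oxygenase were lower in the TAC library, and ferritin heavy chain stood at about the same level in both. Values are CPM, the gene's UMIs per 1000000 UMIs, summed over the cells of a class. Of the 9 members, 4 were at least 1.5-fold lower and 0 were at least 1.5-fold higher. Of all 12596 genes with at least 20 UMIs in macrophages, 21.0% were at least 1.5-fold lower and 14.8% at least 1.5-fold higher. The median log2 ratio of TAC over sham was -0.41 over the members and -0.07 over all genes tested.

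**Figure D1:**
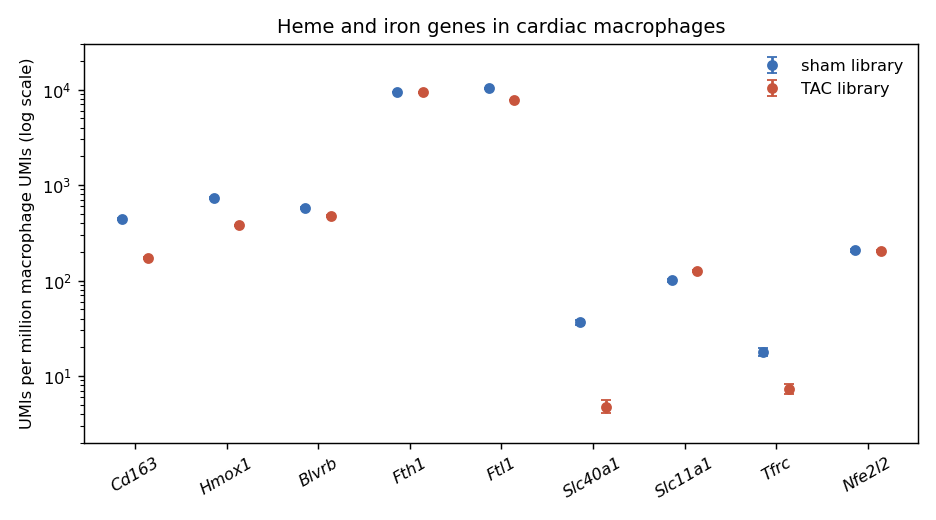
CPM of the 9 members in macrophage-like cells on a log axis, 1 point per library (sham blue, TAC red), with bars for exact Poisson 95% intervals that are mostly smaller than the points. The widest gap is that of Slc40a1, at 36.4 in sham and 4.77 in TAC, and the Fth1 points lie side by side.

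Cd163 stood at 441 CPM (432 to 449) in sham and 173 CPM (169 to 177) in TAC macrophages. The TAC level was 2.55-fold lower (2.47 to 2.63). Seen per cell, with every macrophage thinned to 1000 UMIs, 31.8% of sham and 12.6% of TAC macrophages held a Cd163 UMI. Fibroblast-like cells, which should lack the receptor, gave 1.42% and 0.81%, at median depths of 8925 and 15140 UMIs against 8582 and 13938 in macrophages. Without thinning the macrophage shares were 70.3% and 45.3%.

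Hmox1 stood at 731 CPM (720 to 741) in sham and 378 CPM (371 to 384) in TAC macrophages, 1.93-fold lower in TAC (1.89 to 1.98). The median macrophage held 3.65 Hmox1 UMIs per 10000 in sham and 1.42 in TAC, and the 95th percentiles were 25 and 17.4, so the ranges of single cells overlapped widely. Hmox1 is a stress-inducible gene, and a list of 22 immediate-early and heat-shock genes that handling of tissue can induce was lower as well. In TAC macrophages 18 of them were past the 1.5-fold limit on the lower side and 0 on the higher, with a median log2 ratio of -0.93. Of all genes, 21.0% were lower and 14.8% higher there. Hspa1b, which encodes a heat-shock protein of the HSP70 family, stood at 1701 CPM in sham against 157 CPM in TAC macrophages. The list was lower outside macrophages too. There 18 genes were lower in neutrophil-like (35.6% of all genes were), 19 in T cell-like (18.9%), 16 in endothelial-like (15.4%) and 11 in fibroblast-like cells (19.2%). In these classes 0 were higher, against 12%, 19.7%, 15.4% and 9.69% of all genes. Of the 4 macrophage clusters held by both libraries, described below, Hmox1 was lower in 3. It was higher in cluster 2, where Hspa1b had a log2 ratio of -3.19. The part of handling in the Hmox1 difference was not tested. Blvrb stood at 575 CPM in sham against 475 CPM in TAC, 1.21-fold lower (1.18 to 1.24) and inside the 1.5-fold limit.

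The ferritin chains parted. Fth1 stood at 9420 CPM in sham against 9323 CPM in TAC, a ratio of 0.990 (0.985 to 0.995). Ftl1 stood at 10283 CPM in sham against 7740 CPM in TAC, 1.33-fold lower (1.32 to 1.34). The heavy chain therefore made up 47.8% of ferritin UMIs in sham macrophages and 54.6% in TAC. Ftl1 has a near-identical copy, Ftl1-ps1, which was listed at 99.8 CPM and 91.8 CPM, and reads that fit both copies could have been split or dropped by the authors' counting.

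Slc40a1 showed the widest separation of the 9 genes. It stood at 36.4 CPM (34.2 to 38.8) in sham, from 944 UMIs, and at 4.77 CPM (4.08 to 5.54) in TAC, from 169 UMIs in a class with more UMIs in all. TAC was 7.64-fold lower (6.48 to 9.06). At 1000 UMIs per cell, 3.10% of sham and 0.312% of TAC macrophages held a Slc40a1 UMI, and unthinned shares were 15.6% and 3.74%. The fibroblast-like background was 0 of 211 sham cells, which allows up to 1.42%, and 0.405% of TAC cells, so the thinned TAC share in macrophages was at the background.

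The remaining members were measured at lower or steadier levels. Tfrc stood at 17.8 CPM in sham against 7.37 CPM in TAC, 2.42-fold lower (2.07 to 2.82), from 461 and 261 UMIs. Slc11a1 was the 1 member past its counting interval on the higher side, at 101 CPM in sham against 126 CPM in TAC, 1.25-fold higher (1.19 to 1.31) and within the 1.5-fold limit. Nfe2l2 stood at 207 CPM and 202 CPM, a ratio of 0.977 (0.943 to 1.01) that includes no difference. Tfrc, with its 3′ UTR hairpins, and Slc40a1, with a hairpin in the 5′ UTR, were thus both lower in TAC, while the ferritin chains, also with 5′ UTR hairpins, were not past the limit.

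Mitochondrial share was set beside these values because few sham macrophages had a low one. Among macrophages with 5 to 7.5% mitochondrial UMIs, 757 in sham and 719 in TAC, Slc40a1 was 4.41-fold lower in TAC (3.33 to 5.93), Tfrc 2.61-fold, Cd163 2.35-fold and Hmox1 1.95-fold. Below 5%, where only 42 sham cells stood against 1265 in TAC, Hmox1 was at 391 CPM in sham against 369 CPM in TAC, a ratio of 0.943 (0.813 to 1.10), while Slc40a1 was 3.89-fold lower (1.52 to 8.33) and Cd163 1.75-fold lower (1.47 to 2.08). Slc40a1 rested on only 7 sham UMIs there, and Tfrc on 6. The Hmox1 difference was thus not seen in the cells with the lowest mitochondrial share, and those of Slc40a1 and Cd163 were. In these cells Ftl1 stood at 8397 CPM in sham against 8026 CPM in TAC, a ratio of 0.956 (0.926 to 0.987). Blvrb was higher in TAC in them, at 376 CPM in sham against 475 CPM, a ratio of 1.27 (1.09 to 1.48).

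Macrophages were then divided by gates on cells thinned to 3000 UMIs. Lyve1-type cells (at least 2 UMIs over Lyve1, Folr2 and Timd4 and none of Ccr2) made up 77.6% of sham and 50.8% of TAC macrophages. Cells with Ccr2 and fewer than 2 of those UMIs made up 3.44% and 9.13%, and cells with neither but at least 10 UMIs of MHC class II genes made up 11% and 34.2%. The gates cut continuous scores: 177 sham and 256 TAC macrophages held 1 UMI of the resident genes, just under the limit, and 186 and 207 held 2. With the same gates on all UMIs of a cell the Lyve1-type shares were 81.4% and 64.2%, the Ccr2-positive shares 3.36% and 13.6%, and the MHC class II shares 6.13% and 14.3%, so the TAC makeup in particular depended on the depth at which cells were gated.

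In Lyve1-type macrophages 4 of 9 members were at least 1.5-fold lower in TAC, against 20% of all genes. Slc40a1 stood at 42.3 CPM in sham against 6.54 CPM in TAC, 6.47-fold lower (5.34 to 7.89). Tfrc was 1.99-fold lower (1.67 to 2.38), Cd163 1.78-fold lower (1.72 to 1.84; 507 CPM to 286 CPM), and Hmox1 1.51-fold lower (1.47 to 1.55; 761 CPM to 504 CPM). Blvrb stood at 622 CPM in sham against 607 CPM in TAC. In this gate the haemoglobin receptor differed less between the libraries than in all macrophages, and ferroportin by nearly as much.

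In the MHC class II gate 4 of 9 members were lower, against 17.7% of all genes. Cd163 stood at 182 CPM in sham against 49.5 CPM in TAC, 3.67-fold lower (3.24 to 4.16), and Hmox1 at 597 CPM and 247 CPM, 2.41-fold lower (2.26 to 2.57). Slc40a1 was 4.88-fold lower (3.05 to 7.81) and Tfrc 2.50-fold lower (1.42 to 4.27), from 22 sham UMIs. In the Ccr2-positive gate, with 92 sham and 205 TAC cells, 3 of the 8 members with at least 20 UMIs were lower, against 17.1%. Cd163 stood there at 87.2 CPM in sham against 11.7 CPM in TAC, 7.42-fold lower (5.03 to 11.1), and Hmox1 at 501 CPM and 148 CPM, 3.39-fold lower (2.98 to 3.85). Gated on all UMIs, Hmox1 was 1.63-fold lower (1.47 to 1.81) in the MHC class II gate and 2.15-fold lower (1.85 to 2.48) in the Ccr2-positive gate, and Cd163 2.64-fold (2.03 to 3.41) and 8.80-fold lower (5.28 to 14.9). In both libraries the order of Cd163 and Hmox1 levels was Lyve1-type, then MHC class II, then Ccr2-positive. Ccr2-positive cells had 9 Slc40a1 UMIs in all, too few for a ratio.

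**Figure D2:**
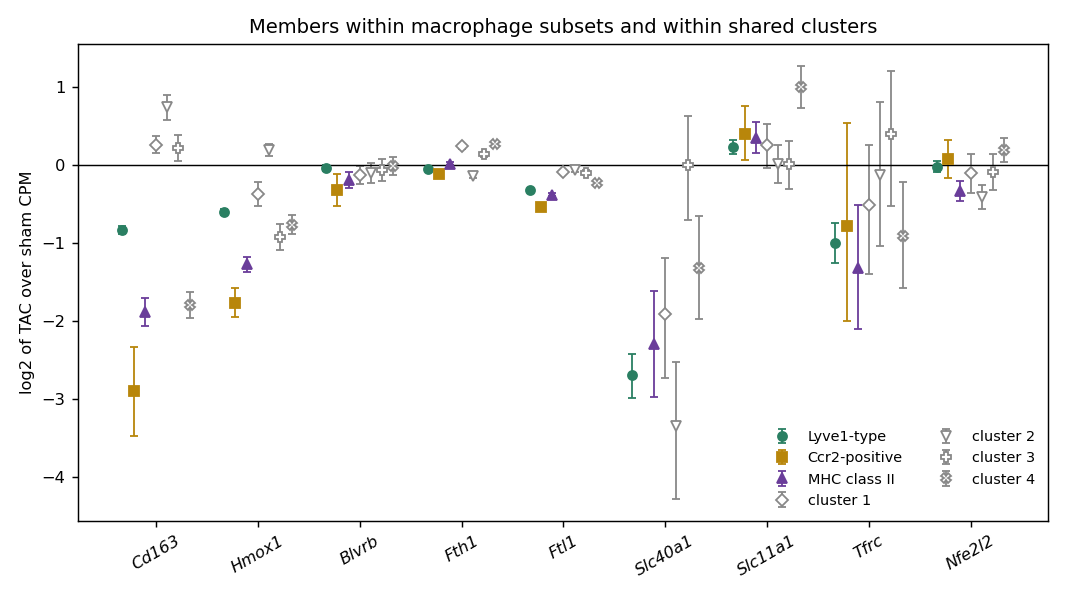
Log2 of the TAC over sham CPM ratio for each member within 3 gated macrophage subsets (filled points) and within the 4 macrophage clusters held by both libraries (open points), with 95% counting intervals, for sums of at least 20 UMIs. Cd163 lies below 0 in the 3 gates and above 0 in clusters 1, 2 and 3, and Slc40a1 lies below 0 in each but cluster 3.

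Most macrophages of the 2 libraries lay in different clusters, and within shared clusters the picture for Cd163 turned. Clusters 0, 1 and 3 held 22.7%, 27.2% and 36.8% of sham macrophages, while clusters 16 (led by Ch25h, Ccl12 and Cd72) and 23 (led by Ccl8 and Timd4) held 50.5% and 16.8% of those of TAC. The 9 genes were not among those used to cluster. Clusters 1, 2, 3 and 4 had at least 50 cells in each library. Cd163 was higher in TAC in 3 of these 4: 625 CPM in sham against 752 CPM in TAC in cluster 1, 235 and 394 CPM in cluster 2, and 323 and 377 CPM in cluster 3. In cluster 4, led by cell cycle genes such as Top2a and Mki67, it was 239 CPM in sham against 69.0 CPM in TAC, 3.47-fold lower (3.09 to 3.89). Cluster 16, the most populous of TAC, stood at 94.3 CPM.

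Slc40a1 kept its difference in 3 of the 4 shared clusters. It was 3.75-fold lower in TAC in cluster 1 (2.28 to 6.62), 10.2-fold lower in cluster 2 (5.75 to 19.4) and 2.50-fold lower in cluster 4 (1.57 to 3.93). In cluster 3, led by the heat-shock genes Hspa1b and Hspa1a, it stood at 25.6 CPM in both libraries, from 210 and 22 UMIs. Hmox1 ratios of TAC over sham were 0.775, 1.15, 0.528 and 0.590 in clusters 1 to 4. Cluster 2, led by Gdf15, Rcan1 and Emp1, had the highest Hmox1 of the 4, at 1278 CPM in sham against 1467 CPM in TAC, and the highest Fth1, at 16097 CPM and 14644 CPM. Slc11a1 was higher in TAC in 4 of 4 shared clusters, from a ratio of 1.01 in cluster 3 to 2.0 in cluster 4.

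Members at least 1.5-fold lower numbered 1 in each of clusters 1, 2 and 3, where 14.1%, 13.9% and 14% of all genes were, and 4 in cluster 4, where 22.2% were. Members at least that much higher numbered 1 in cluster 2 (Cd163; 15.4% of all genes) and 1 in cluster 4 (Slc11a1; 11.4%). With each of the 4 clusters weighing the same, only Slc40a1 of the 9 members stayed past the limit, at a mean log2 ratio of -1.64. Cd163 came to -0.14, Hmox1 to -0.46 and Tfrc to -0.28.

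Cd163 and the other genes were also compared between macrophages of 1 library, at 3000 UMIs per cell. In sham 53.5% of macrophages held a Cd163 UMI, and in TAC 27.6%. Hmox1 did not part these cells in sham, with 721 CPM in those with and 735 CPM in those without Cd163 (ratio 0.981, 0.931 to 1.03). In TAC it did, with 610 CPM and 349 CPM, 1.75-fold higher in cells with Cd163 (1.62 to 1.89). Blvrb was higher in cells with Cd163 in both libraries, 1.23-fold in sham and 1.34-fold in TAC.

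The wider pathway lists, read in the same macrophage sums and against the same background of 14.8% higher and 21.0% lower, moved in both directions. Of 8 measured genes of heme synthesis, 1 was at least 1.5-fold higher and 0 lower. Alad was 1.47-fold higher, and Fech and Cpox were 1.36-fold and 1.25-fold lower. Beside Hmox1 and Blvrb, the heme degradation genes Hmox2 and Blvra stood at 141 and 68.8 CPM in sham and at 156 and 75.8 CPM in TAC, so the constitutive oxygenase did not share the lower level of the inducible one.

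Of 8 measured genes of heme and haemoglobin uptake and transport, Cd163 was lower and Hp was higher. Hp (haptoglobin), the ligand that brings haemoglobin to Cd163, stood at 2.28 CPM in sham against 27.4 CPM in TAC, 12-fold higher. Lrp1, the receptor for heme-hemopexin, was 1.48-fold lower, and Abcb6 stood at 2.82 and 2.79 CPM. Of 10 measured iron uptake genes 2 were higher and 2 lower. Lcn2, which binds iron-carrying siderophores, stood at 1.20 CPM in sham against 40.0 CPM in TAC, and Slc39a14 (ZIP14) was 2.20-fold higher. Trf (transferrin) was 2.45-fold lower, at 770 CPM and 314 CPM, beside its receptor Tfrc. In the 4 shared clusters Trf had log2 ratios of 0.07, -0.01, 0.07 and -1.39, so it was lower past the limit in the cycling cluster 4 only. Averaged over these clusters, 4 iron uptake genes were higher and 0 lower. The 4 were Lcn2, Steap4, Slc39a14 and Steap3, with mean log2 ratios of 5.43, 1.71, 1.15 and 0.66. No share of all genes is given for averages over the shared clusters, here or below. Hp and Lcn2 are abundant in neutrophils, and the 16 neutrophil markers summed to 185 CPM in sham against 1772 CPM in TAC macrophages, with 15 of 16 higher in TAC and 1 at 0 in sham. Their part in the Hp and Lcn2 values was not tested.

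Of 7 measured genes of iron storage and release, 0 were higher and 2 lower. Ncoa4, the receptor that carries ferritin to lysosomes for iron release, stood at 71.7 CPM in sham against 26.5 CPM in TAC, 2.70-fold lower, beside Slc40a1. Cp (ceruloplasmin), which oxidises exported iron, stood at 58.5 and 57.7 CPM. Ncoa4 was lower in TAC in each of the 4 shared clusters, with log2 ratios from -1.20 to -0.49. The measured genes of iron regulation numbered 6, of which 4 were lower and 1 higher. Id1 and Bmp2, a target and a ligand of BMP signalling, were 2.58-fold and 2.02-fold lower, Fbxl5, which marks an iron regulatory protein for destruction when iron is ample, was 1.72-fold higher, and Aco1, which encodes an iron regulatory protein, was 1.28-fold lower. Averaged over the shared clusters, 1 gene of iron regulation was lower and 1 higher: Id1, with log2 ratios from -2.39 to -1.76, and Fbxl5, from 0.52 to 1.56. Bmp2 ran at -0.21, 0.25, -0.45 and -1.38 in clusters 1 to 4, with a mean of -0.45 inside the limit.

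Mitochondrial iron genes gave 1 higher and 2 lower of 8, with Nfs1 1.23-fold higher and Isca1 1.60-fold lower. Targets and regulators of Nrf2 and Bach1 gave 4 higher and 3 lower of 18, with a median log2 ratio of 0.05. Slc7a11, the cystine transporter, was 2.29-fold higher, and Me1 was 3.11-fold higher at under 1 CPM in both libraries. Spic, the transcription factor of iron-recycling macrophages, was 1.93-fold lower and Maff 1.87-fold lower. Haemoglobin transcripts, which come from red cell precursors, were low: Hbb-bs stood at 47.8 CPM in sham against 72.2 CPM in TAC macrophages, and 3 of 4 haemoglobin genes were at least 1.5-fold higher. Averaged over the shared clusters, the remaining lists gave 2 higher and 0 lower for heme synthesis, 1 and 0 for heme uptake, and 0 and 0 for heme degradation. They gave 0 and 2 for storage and release, 0 and 2 for mitochondrial iron, and 1 and 2 for Nrf2 and Bach1. Haemoglobin gave 3 and 0, and the 22 immediate-early and heat-shock genes gave 0 and 13.

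Outside macrophages, the members were read over all barcodes and over those low in C1q. Summed over all barcodes, 5 of 9 members were at least 1.5-fold lower in TAC in neutrophil-like cells (35.6% of all genes were), 4 of 9 in T cell-like cells (18.9%), 3 of 8 in fibroblast-like cells (19.2%) and 5 of 8 in endothelial-like cells (15.4%), and 0 were higher in any of the 4 (12%, 19.7%, 9.69% and 15.4% of all genes were). The C1q genes stood at 81.9% of the macrophage level in sham and 51.8% in TAC neutrophil-like barcodes, and Cd163 at 88.8% and 65.3%. In T cell-like barcodes C1q stood at 66.3% and 56.6% and Cd163 at 64.7% and 68.4%. Most sham neutrophil-like barcodes (cluster 6) and most of those of TAC (clusters 19, 21 and 22) lay in different clusters. In neutrophil-like cells the median of all genes was itself at -0.33, which median-of-ratios scaling moved by 0.32.

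In endothelial-like and fibroblast-like barcodes low in C1q fewer members were past the limit. Among endothelial-like cells, 74 in sham and 370 in TAC, 0 of 6 measured members were lower (14.4% of all genes were) and 0 higher (19.2%) by the rule that adds 0.5 UMI to each count. Hmox1 stood at 20.6 CPM in sham against 23.6 CPM in TAC, where all barcodes gave 158 and 71.3. Among fibroblast-like cells, 183 and 226, 0 of 6 were higher (10.6%) and 1 was lower (18.5%): Slc40a1, from 9 and 13 UMIs, with a ratio interval of 0.247 to 1.65. Summed over these cells, Hmox1 was 1.5-fold higher (1.21 to 1.87), at 66.4 CPM in sham against 99.6 CPM in TAC, where all barcodes gave 165 and 122. Nfe2l2 in endothelial-like cells was also 1.5-fold higher (1.19 to 1.92), at 131 CPM and 198 CPM. Both were just under the limit by that rule. Single fibroblast-like cells low in C1q did not follow the Hmox1 sum. On the per-cell scale used for Hmox1 in macrophages above, their median was 0 in both libraries. Their 95th percentile was 3.41 in sham against 2.15 in TAC, so the higher level was not that of the typical cell. T cell-like barcodes low in C1q numbered 9 in sham and 86 in TAC, and Hmox1 kept the direction of macrophages in them, at 194 CPM and 57.1 CPM, 3.40-fold lower (1.83 to 5.94) from 16 and 64 UMIs.

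**Figure D3:**
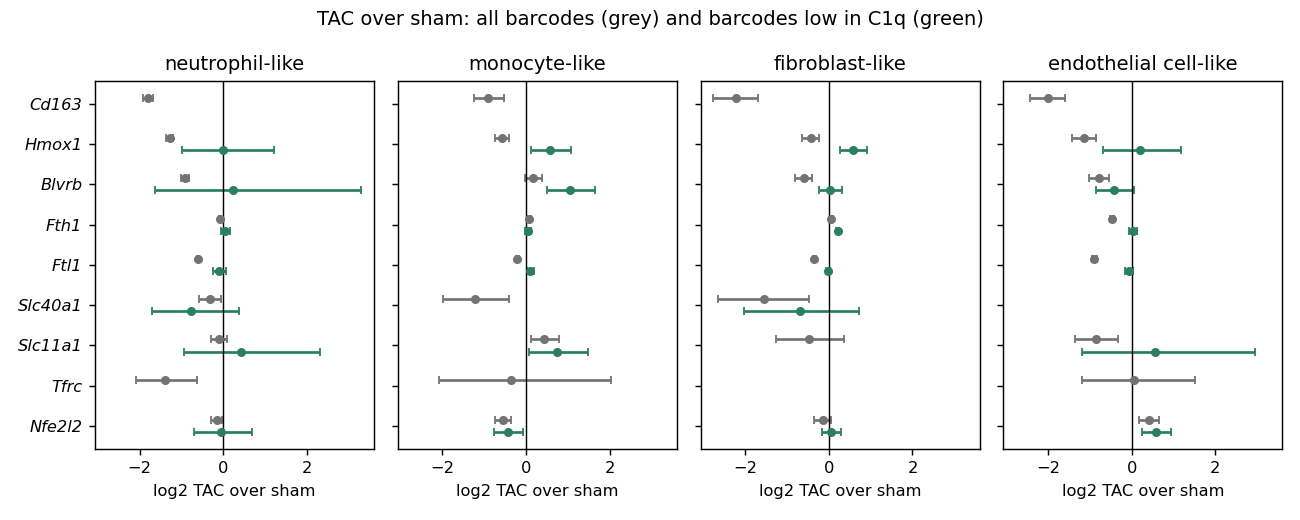
Log2 of TAC over sham for each member in 4 classes, over all barcodes (grey) and over barcodes low in C1q (green), with 95% counting intervals, for sums of at least 20 UMIs with a UMI in each library. The green points for Hmox1 lie at or above 0 in the 4 classes, where the grey ones lie below. The green Hmox1 intervals of neutrophil-like cells (8 sham UMIs) and endothelial-like cells (13 sham UMIs) include 0. T cell-like barcodes, with 9 sham cells low in C1q, are not drawn, and Hmox1 was lower in TAC in them.

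Monocyte-like cells low in C1q numbered 32 in sham and 221 in TAC, and 2 of 6 measured members were higher there, against 23.8% of all genes. Blvrb stood at 104 CPM in sham against 216 CPM in TAC, 2.07-fold higher (1.42 to 3.13), from 28 sham UMIs. Slc11a1 stood at 70.7 CPM and 117 CPM, 1.66-fold higher (1.05 to 2.78), from 19. Hmox1 was at 149 CPM and 223 CPM, 1.49-fold higher (1.09 to 2.11), and Nfe2l2 at 294 CPM and 219 CPM, 1.34-fold lower (1.05 to 1.69). The direction of the Hmox1 sum here was the reverse of that in macrophages, from 40 sham UMIs in 32 cells. The median cell was lower in TAC, as in macrophages, at 1.12 in sham against 0.84 in TAC on the per-cell scale used there. The 95th percentile was higher in TAC, at 4.14 in sham against 5.07.

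Neutrophil-like cells low in C1q carried ferroportin. They numbered 15 in sham and 681 in TAC. With 0.5 UMI added to each count, 2 of 8 measured members (Cd163 and Slc40a1) were called lower in TAC, against 43.2% of all genes. The call for Cd163 came from that addition alone, as it had 0 UMIs in sham and 22 (4.62 CPM) in TAC. Slc40a1 had 9 sham UMIs, and both counts were too few for a reading. How far the addition raised the share of all genes was not tested. In TAC Slc40a1 stood at 81.7 CPM (73.8 to 90.2), from 389 UMIs, against 4.77 CPM in TAC macrophages and 3.42 CPM (1.82 to 5.86) in fibroblast-like cells, while the C1q genes stood at 2.28% of their own macrophage level. At 1000 UMIs 11.2% of these cells held a Slc40a1 UMI (8.89 to 13.8%) against 0.312% of TAC macrophages and 0.444% of fibroblast-like cells low in C1q. In sham the level was 139 CPM (63.8 to 265), from 9 UMIs. Cluster 22, led by Stfa2l1, G0s2 and Ifitm1, held 644 TAC cells and stood at 115 CPM, cluster 21, led by the granule genes Ngp, Camp and Ltf, at 35.0 CPM, and cluster 19, where the macrophage markers were also detected, at 32.4 CPM. Among the clusters of neutrophil-like cells the exporter was thus highest in that with the lowest share of macrophage markers, 16.7% detected in at least 50% of cells.

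The levels of the other members in the TAC library, over barcodes low in C1q, gave each gene its own order of cell types. B, erythroid and mural cell-like barcodes numbered only 16, 16 and 23 there, so their places rest on few UMIs. Cd163 was at or under 6.23 CPM in each of the 9 types set beside macrophages, and those types did not differ beyond their counting intervals. Hmox1 stood at 223 CPM in monocyte-like cells, 125 in neutrophil-like, 99.6 in fibroblast-like, 57.1 in T cell-like and 23.6 in endothelial-like cells, against 378 in macrophages, and none of these neighbours overlapped. B, NK, erythroid and mural cell-like barcodes had 1, 2, 4 and 7 Hmox1 UMIs. Blvrb had the order macrophages (475 CPM), erythroid cell-like (282, from 64 UMIs), monocyte-like (216), B cell-like (137), fibroblast-like (92.5), endothelial-like (61.9), T cell-like (60.6), mural cell-like (51.4), neutrophil-like (36.7) and NK cell-like cells (8.76), in which erythroid cell-like cells overlapped monocyte-like ones, the interval of B cell-like cells overlapped those of monocyte-like and fibroblast-like cells, and endothelial-like, T cell-like and mural cell-like cells overlapped each other. The mural interval (30.5 to 81.3) overlapped that of neutrophil-like cells too.

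Slc11a1 was a gene of myeloid cells, at 126 CPM in macrophages, 117 in monocyte-like cells, whose intervals overlapped, and 83.6 in neutrophil-like cells, and at no more than 19.6 in the others. Nfe2l2 was highest in neutrophil-like cells (284 CPM), followed by monocyte-like cells (219), macrophages (202) and endothelial-like cells (198), the last 3 overlapping. Its lowest values were in B cell-like (49.9) and erythroid cell-like cells (35.3), each from 8 UMIs and overlapping each other. The B cell-like interval (21.5 to 98.2) also overlapped those of NK (73.6 CPM), T (91.0 CPM) and mural cell-like cells (123 CPM). The erythroid interval (15.2 to 69.5) overlapped that of NK cell-like cells. Tfrc, used by dividing cells to take in iron, had its highest values in B (31.2 CPM, 5 UMIs), NK (17.5 CPM, 10 UMIs) and T cell-like cells (12.5 CPM, 14 UMIs), which overlapped each other, and 7.37 CPM in macrophages, which overlapped T cell-like cells. It stood at 1.68 CPM in neutrophil-like cells.

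**Figure D4:**
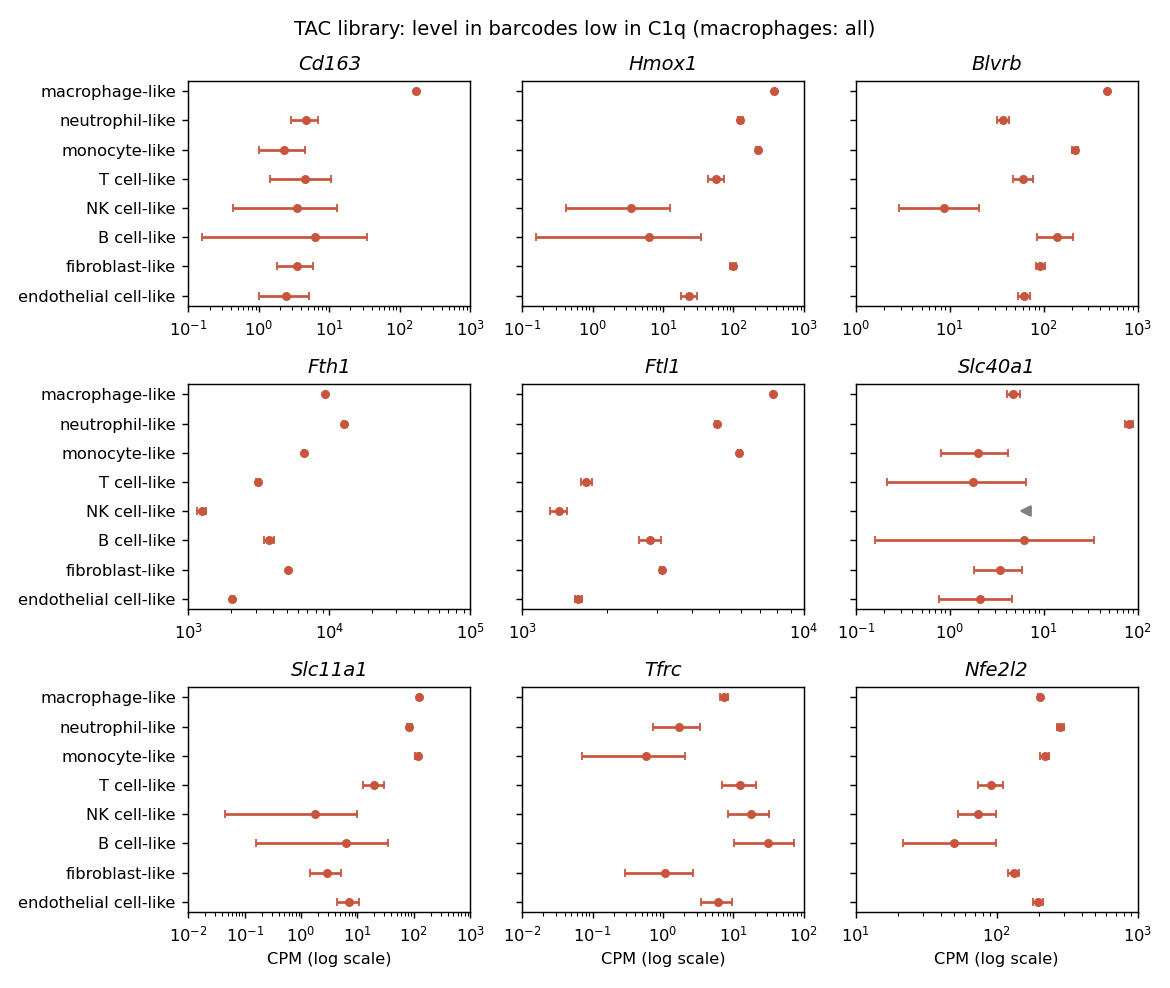
CPM of each member in the TAC library in 8 cell types, on log axes whose range differs between panels, over all macrophage-like cells and over the barcodes low in C1q of the other types, with Poisson 95% intervals; the arrowhead is the upper limit of a count of 0. Slc40a1 is highest in neutrophil-like cells at 81.7 CPM, and Cd163 is over 170 CPM in macrophages alone. Erythroid and mural cell-like barcodes are not drawn.

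Ferritin differed between cell types in amount and in make-up. Fth1 stood at 12660 CPM in TAC neutrophil-like cells low in C1q, above the 9323 CPM of macrophages, and Ftl1 at 4898 CPM, below their 7740. The heavy chain share was 70.0% in sham and 72.1% in TAC neutrophil-like cells, 53.9% and 52.9% in monocyte-like, 58.0% and 62.1% in fibroblast-like and 54.9% and 56.4% in endothelial-like cells. In macrophages and fibroblast-like cells the share was higher in TAC by more than the counting intervals.

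Of the 4 clusters that took no class name, 3 held more ferritin heavy chain than macrophages as a whole. The exception was cluster 10, led by Mmp12, where the sham level was 9342 CPM against 8270 CPM in TAC. Cluster 20, led by Il1a, Vegfa, Il10 and Fabp5, had 21 sham and 453 TAC cells, and ferritin made up 5.0% and 3.25% of all their UMIs, against 1.97% and 1.71% in macrophages. Its TAC cells held Fth1 at 20794 CPM and Hmox1 at 899 CPM, with Cd163 at 22.0 CPM and Slc40a1 at 3.15 CPM. Clusters 15 and 18, both with Gpnmb and Hmga2 among their 10 leading genes, held Fth1 at 19286 and 17149 CPM in sham and at 20466 and 23538 CPM in TAC. Tfrc stood in them at 32.9 and 20.5 CPM in sham and at 14.8 and 19.8 CPM in TAC, above the macrophage value of the same library. Cells with very high ferritin were thus low in Cd163 in these clusters, at 30.9 CPM or less.

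**Figure D5:**
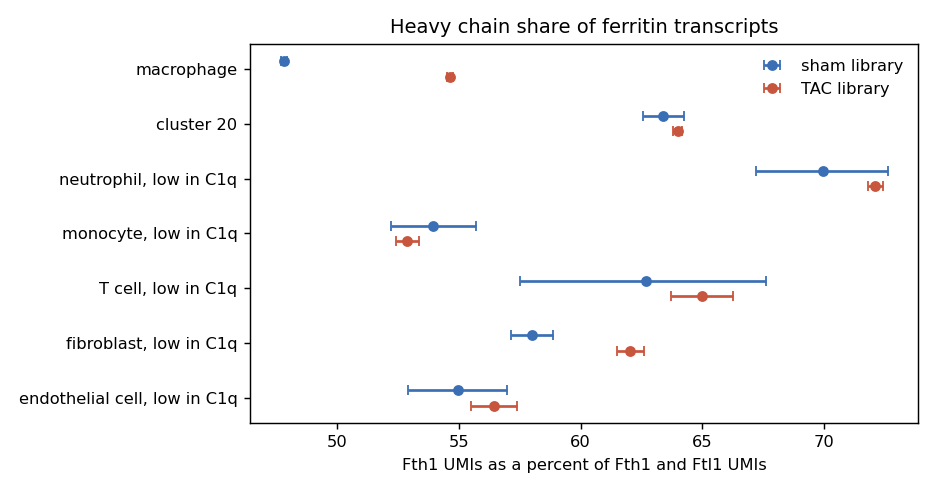
Fth1 UMIs as a percent of all Fth1 and Ftl1 UMIs (horizontal axis, which does not start at 0) in macrophages, in the unnamed cluster 20 and in barcodes low in C1q of 5 classes, 1 point per library (sham blue, TAC red) with exact binomial 95% intervals. Neutrophil-like cells lie farthest right, at 70.0% and 72.1%, and macrophages move from 47.8% in sham to 54.6% in TAC.

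Genes with the most similar pattern were sought over 22 sums of a class and a library, among 5348 genes, by Pearson correlation of log2(CPM + 1). The sums share their libraries and, through macrophage RNA, their cells, so the values are descriptions. Cd163 was closest to Gpr34, Mrc1 and Folr2 (r of 0.97, 0.96 and 0.96). Slc11a1 was closest to Cd300c2, Nrros and Plek (0.94, 0.94 and 0.93), and Hmox1 to Abhd12, Hexa and Tank (0.91, 0.91 and 0.90). Slc40a1 was closest to Il16, Tmcc1 and Chp2 (0.88, 0.87 and 0.86) and Tfrc to Fxyd2, Camk1 and Idh2 (0.81, 0.81 and 0.80). Among the members themselves the highest values were those of Hmox1 with Ftl1 (0.89), Cd163 with Blvrb (0.85) and Fth1 with Ftl1 (0.83), and the lowest was that of Tfrc with Nfe2l2 (-0.40).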

How the data were processed

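The deposited files are matrices of raw, unscaled UMI counts for each gene in each barcode. Cell Ranger 3.0 and mm10 are named in the submitters' processing notes. The step by which the authors told cells from empty droplets is not stated in the labels. Several droplet runs are mentioned there, which the barcode suffixes do not separate.

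Barcodes were kept if they had 300 or more genes and no more than 10% mitochondrial UMIs. Both libraries were clustered together on 1998 variable genes without the members, with Leiden clustering (resolution 1) of a graph of 15 neighbours in 30 principal components. A cluster was named for a class if 3 or more of its 10 leading genes were markers of that class, and no other class had as many. A cluster without such a class was called macrophage-like if at least 60% of the 18 macrophage markers were detected in at least 50% of its cells and no other class had more of the 10 leading genes than macrophages; this rule, and the C1q limit of 20 UMIs per 10000, were set after values had been seen. No doublet caller was run. The alternative that leaves out the cells with the most UMIs stands in for it, so doublets were in effect kept.

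UMIs were summed within each class and expressed as CPM, with exact Poisson intervals. Ratios carry exact conditional binomial intervals and shares exact Clopper-Pearson ones, all at 95% and for counting error only. The macrophage-, neutrophil-, T cell-, fibroblast- and endothelial-like classes, compared over all barcodes, had at least 100 cells in each library. Monocyte-like cells (67 in sham) and some gates, clusters and sets of barcodes low in C1q had fewer in a library, and their ratios are given too. Members past 1.5-fold were counted with 0.5 UMI added to each count, among genes with at least 20 UMIs over both libraries. Upper limits for a count of 0 use 3 counts. Interval and fold functions were tested on simulated data.

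Gene positions and UTRs are from GENCODE vM21. The members, marker lists and pathway lists were chosen with earlier results of these data known. Beside the members, the 2 highest and 2 lowest measured genes of each list were named, and the 3 genes most similar to 5 members. Some genes named by this rule are not reported here. Clusters described singly were chosen after their values were seen. Clustering used scanpy 1.11.5, igraph 0.11.9 and scikit-learn 1.9.0, intervals scipy 1.17.1, and sums numpy 2.4.6 and pandas 2.3.3, in Python 3.11.15. No protein sequences were used here.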

Additional observations from a re-analysis of the deposited data

How the results depend on the processing

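In macrophages the direction of Slc40a1, Cd163, Hmox1, Tfrc, Ftl1 and Slc11a1 was the same under each of 13 alternatives, with log2 ratios from -3.54 to -1.64, -1.55 to -0.14, -1.01 to -0.08, -1.57 to -0.28, -0.47 to -0.11 and 0.23 to 0.59. Fth1, Nfe2l2 and Blvrb, all inside the 1.5-fold limit, took the other sign under some. Over the macrophage clusters held by both libraries, each weighing the same and chosen after seeing the data, the members at least 1.5-fold lower went from 4 to 1. In neutrophil-like cells the members lower went from 5 to 3 at a 2-fold limit, and with cells thinned to 1000 UMIs 1 member (0 before) was higher. In fibroblast-like cells the members lower went from 3 to 0 when thinned and to 1 without C1q-rich barcodes. In endothelial-like cells they went from 5 to 3 when thinned, to 0 without C1q-rich barcodes and to 2 at a 2-fold limit. Without C1q-rich barcodes, 6 members were measured in each of these 2 classes, where 8 were before. Of all genes, 18.5% were then lower in fibroblast-like and 14.4% in endothelial-like cells. For thinning, the 2-fold limit and the equally weighted clusters the share of all genes is not given, so those counts cannot be set against it. Log2 ratios changed sign for Tfrc in T cell-like cells (0.062) and Blvrb in fibroblast-like cells (0.25) when thinned, and without C1q-rich barcodes for Cd163 (0.17) and Blvrb (0.035) in fibroblast-like and Hmox1 (0.20) and Slc11a1 (0.57) in endothelial-like cells. Without C1q-rich barcodes the ratio intervals of these genes all included no difference. Cd163 rested there on 5 sham and 13 TAC UMIs, under the 20-UMI minimum, and Slc11a1 on 3 and 20. The barcodes removed are those rich in macrophage RNA. The cause of the other changes was not tested. A 5% mitochondrial limit was not run in the 4 other classes, where 1 to 13 sham cells were left, nor the removal of C1q-rich barcodes in neutrophil-like (15 sham cells) and T cell-like cells (9). Leaving out a replicate was not possible. No paired analysis was possible because each group is 1 library. Depth limits Tfrc and Slc40a1 most, which had 261 and 169 UMIs in TAC macrophages.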
